A study of Homo sapiens with 18 samples.

Results

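Interferon regulatory and interferon-stimulated genes were followed in ECV304 cells given interleukin-1β (IL-1β) with or without aminaphtone. The module is a list of 43 genes that carry, control or answer interferon signals. A member was measured by the array rows whose annotation names it alone, and where a gene had several such rows the one with the highest mean over the arrays was used. This found 41 of the 43 members on 50 rows, out of 18377 genes named in the same way in the series. STAT2 was not analysed here, and GBP1 shares its row with GBP3 and a pseudogene, so it has no value of its own. The values are log2 signals per transcript cluster, the array's unit for a gene, so a difference of 1 means a doubling of the signal.

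ECV304 is an established human cell line that was described as endothelial and is now regarded as derived from a bladder carcinoma. Its label gives it both endothelial and epithelial traits. Confluent cultures were held in 1% serum for 24 h, and every one of them then received recombinant IL-1β at 100 IU/ml. The treated groups had aminaphtone, a drug used for capillary disorders, at 6 µg/ml as well, while the control groups had the same volume of medium. RNA was taken after 1, 3 and 6 h from 3 independent replicates of each of the 6 groups, 18 arrays in all, and no group went without IL-1β. A difference between times therefore describes the hours after IL-1β was added together with anything else that changed in culture over those hours.

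Interferon-β and its relatives bind a receptor made of IFNAR1 and IFNAR2, and interferon-γ binds IFNGR1 with IFNGR2. Kinases on the receptors activate STAT proteins, which bind the interferon-stimulated response element (ISRE) together with IRF9, or the gamma-activated site (GAS) as STAT dimers. Genes with these elements make the antiviral proteins (the IFIT, OAS, MX and IFITM families) and the machinery that loads peptides on MHC class I molecules (TAP1, TAP2, PSMB8 and PSMB9). IL-1β signals mainly through NF-κB, a factor that also takes part in switching on IFNB1 and IRF1.

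Promoter sequences show which of these elements lie in front of the members whose values are described most closely. They are the 250 bases before the gene start in RefSeq's table for GRCh38.p14, written 5′ to 3′ on the gene's strand. The 6 genes were picked after their values and matches were seen. Capitals mark matches on either strand to the ISRE core (GAAA, any 2 bases, GAAA), to the GAS consensus TTCNNNGAA or to the NF-κB consensus.
IRF1 (chr5:132490774-132491023, minus strand): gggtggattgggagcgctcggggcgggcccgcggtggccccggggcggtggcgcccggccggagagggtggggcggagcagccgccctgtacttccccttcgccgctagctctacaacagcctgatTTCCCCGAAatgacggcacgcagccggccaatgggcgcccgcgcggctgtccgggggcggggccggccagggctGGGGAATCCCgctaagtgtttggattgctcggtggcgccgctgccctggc
TAP1 (chr6:32853705-32853954, minus strand): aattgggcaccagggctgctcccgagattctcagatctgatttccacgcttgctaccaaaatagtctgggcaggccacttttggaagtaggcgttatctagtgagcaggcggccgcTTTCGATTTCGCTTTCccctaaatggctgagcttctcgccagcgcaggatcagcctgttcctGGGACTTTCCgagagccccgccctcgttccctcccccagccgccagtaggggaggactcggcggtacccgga
TAP2 (chr6:32838740-32838989, minus strand): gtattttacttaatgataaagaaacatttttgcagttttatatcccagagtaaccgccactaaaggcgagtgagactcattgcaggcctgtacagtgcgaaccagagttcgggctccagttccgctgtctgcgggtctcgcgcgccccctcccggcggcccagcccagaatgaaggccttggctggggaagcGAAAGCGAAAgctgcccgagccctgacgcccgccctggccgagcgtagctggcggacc
IFIH1 (chr2:162318685-162318934, minus strand): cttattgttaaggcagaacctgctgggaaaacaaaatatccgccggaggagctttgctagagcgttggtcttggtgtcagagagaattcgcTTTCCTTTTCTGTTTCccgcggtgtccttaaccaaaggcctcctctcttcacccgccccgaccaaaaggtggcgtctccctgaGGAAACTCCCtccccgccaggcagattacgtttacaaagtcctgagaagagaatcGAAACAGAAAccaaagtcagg
IFIT1 (chr10:89392373-89392622, plus strand): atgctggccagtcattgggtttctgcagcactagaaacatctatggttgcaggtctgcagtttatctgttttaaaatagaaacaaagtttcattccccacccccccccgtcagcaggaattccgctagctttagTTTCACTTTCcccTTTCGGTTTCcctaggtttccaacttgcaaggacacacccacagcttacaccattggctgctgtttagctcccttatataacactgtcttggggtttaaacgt
IFNB1 (chr9:21077943-21078192, minus strand): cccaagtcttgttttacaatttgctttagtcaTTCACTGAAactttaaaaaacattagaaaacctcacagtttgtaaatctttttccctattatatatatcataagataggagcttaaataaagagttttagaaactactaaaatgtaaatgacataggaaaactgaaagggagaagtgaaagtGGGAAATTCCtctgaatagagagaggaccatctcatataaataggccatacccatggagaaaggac
In IRF1 the capitals are a GAS match starting 124 bases before the gene start and an NF-κB match at 50. TAP1 has a run of overlapping ISRE matches at 134 and 128 and an NF-κB match at 72, and TAP2 has a single ISRE match at 58. IFIH1 has ISRE matches at 159, 153 (these overlap) and 21 and an NF-κB match at 76. IFIT1 has ISRE matches at 116 and 103. IFNB1 has a GAS match at 218 and an NF-κB match at 66. RefSeq's table held 33 of the 43 members. Within 300 bases, 250 before and 50 after the start, 20 of the 33 (60.61%) held the ISRE core, against 3.648% of the 27305 promoters in the table. The GAS consensus was in 9 of the 33 (27.27%) against 7.881%, and the NF-κB consensus in 10 (30.3%) against 10.83%. Many members were listed because they answer interferon, so these shares describe the list and are no result of the arrays. A match describes the letters of this window and is no evidence that a factor was bound.

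Array medians lay between 6.93 and 7.06. The control arrays at 1 h stood apart from each other. Their pairwise correlations were 0.9645 to 0.9863, against 0.9856 or more within any other group. Over the members tested, their median SD was 0.312, against 0.117 to 0.223 in the other groups, and 18 of 31 members had their largest SD there. Replicate 1 was the lowest of these 3 arrays in 20 of the 31 members. Replicate 2 was the highest in 15 and the lowest in 8, and replicate 3 lay between replicates 1 and 2 in 20. This order does not single out replicate 1 as the deviating array. Counts of members called that rest on the 1 h controls are given with and without replicate 1. For the changes over time the members whose call differs without it are named. Counts by unadjusted p, by sign and by overlap, and those on the pathway list, are given with all arrays only. Of markers listed for cell types, 10 of 10 epithelial and urothelial genes lay above the expression filter described next and 4 of 10 endothelial genes did (CDH5, TIE1, ROBO4 and CLDN5), while PECAM1 and VWF lay below it. Of 6 leukocyte markers found, CD14 and ITGAM lay above it and PTPRC did not. The group means of each list ran from 8.12 to 8.51 (epithelial), 5.88 to 6.13 (endothelial) and 5.45 to 5.59 (leukocyte). Levels of different transcript clusters are not directly comparable, so these means do not rank the lists. KRT7, KRT8 and KRT18 read 11.36, 12.38 and 11.75 on average, and the other epithelial markers 6.51 (UPK3A) to 7.46 (EPCAM). The endothelial markers ran from 4.57 (EMCN) to 7.73 (CLDN5). Their part in the results was not tested.

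The mean signals of 10 members, most of them classical antiviral genes, lay below the filter used for testing. The filter was the 25th percentile of the mean signals of annotated transcript clusters, 6.19, and those below it were IFNB1, IFIT1, IFIT2, IFIT3, OAS2, MX1, RSAD2, BST2, IFI44 and IFI44L. Their means over all arrays ran from 4.11 to 6.00, and in 8 of the 10 the 6 group means lay within 0.4 of each other. IFNB1, the gene of interferon-β, read 3.92, 4.0 and 3.99 at 1 h, 4.11, 4.16 and 4.09 at 3 h and 4.14, 4.13 and 4.0 at 6 h in controls. With aminaphtone IFNB1 read 3.72, 4.17 and 4.17 at 1 h, 4.11, 4.36 and 4.11 at 3 h and 4.32, 4.43 and 4.13 at 6 h. All 18 values ran from 3.72 to 4.43, and no group was clear of all the others. In controls the 3 h arrays were all above the 1 h arrays, by 0.15 on average. The remaining 31 members passed the filter on their mean over all arrays, and the counts that follow are over those 31.

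**Figure D1:**
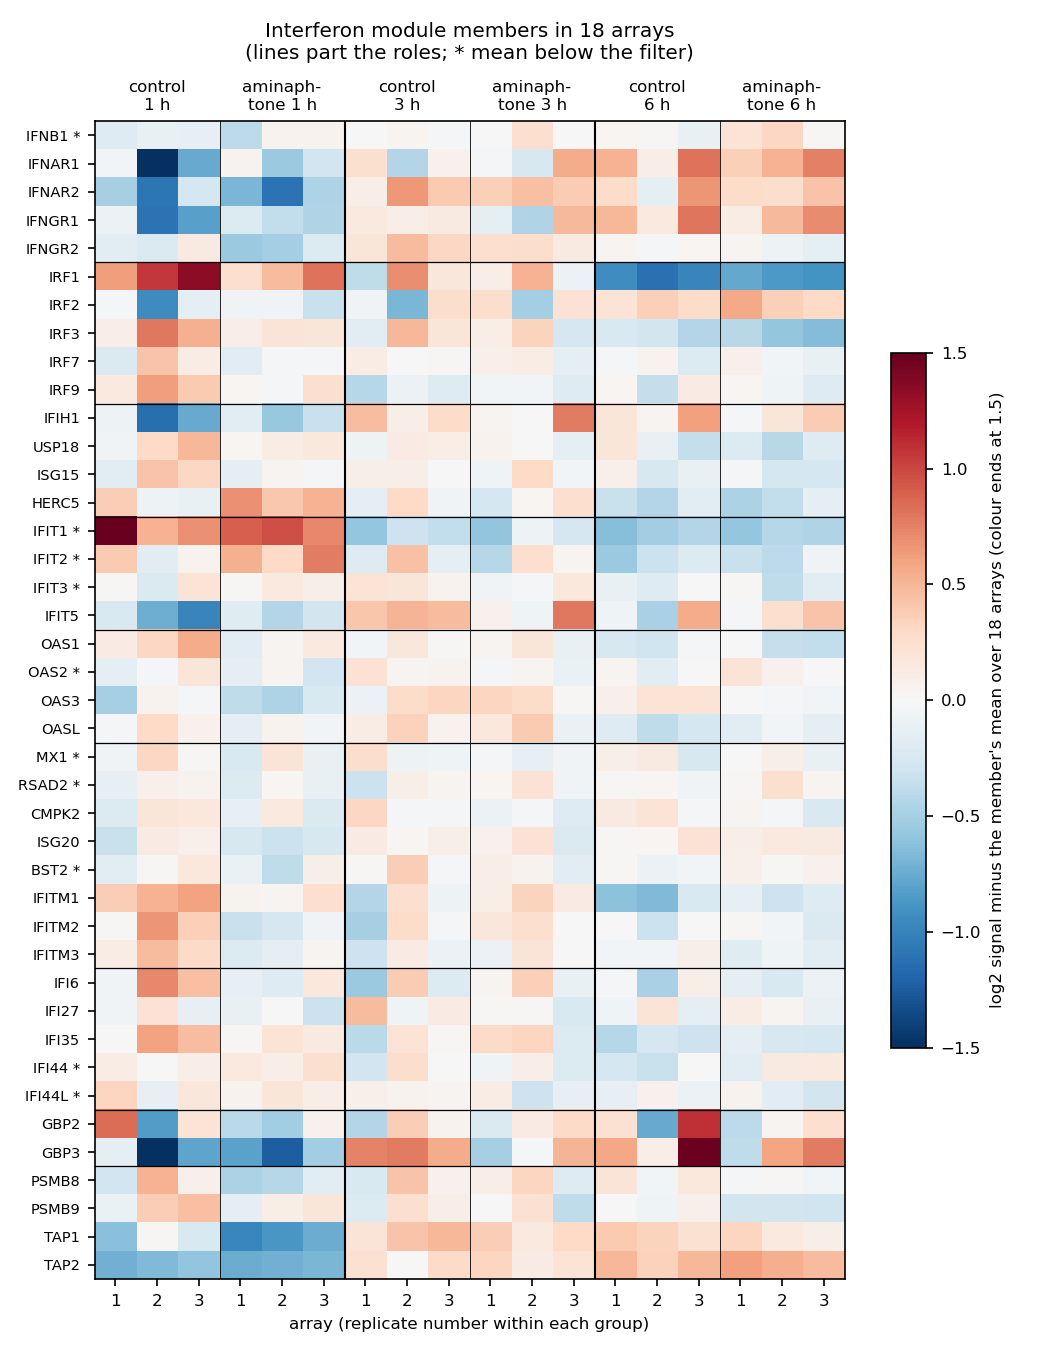
Heat map of the 41 members found (rows, parted by role) in the 18 arrays (columns, by group and replicate number). Colour is the log2 signal minus the member's own mean over the 18 arrays, and an asterisk marks the 10 members below the filter. IRF1 turns from red to blue from 1 to 6 h, TAP1 and TAP2 from blue to red, and the 3 control arrays at 1 h differ among themselves.

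In the hours after IL-1β 3 of the 4 interferon receptor chains were higher in control cells at 3 h than at 1 h, as were 3 of the 4 at 6 h. Both subunits of the TAP peptide transporter rose, while IRF1 and IFITM1 fell. The arrays measure whole cultures, so fewer cells with a transcript and less of it per cell cannot be told apart. Between 1 and 3 h, limma with Benjamini-Hochberg adjustment called 11 of the 31 members, 8 higher and 3 lower, where 12.8% of all 15796 transcript clusters tested were called (4.81% higher, 7.98% lower). Between 1 and 6 h it called 14, 7 in each direction, against 26.5% of all (11.3% higher, 15.2% lower). Between 3 and 6 h it called IRF1, against 0.513% of all. The median member hardly differed from the median of everything tested, at -0.02 against -0.02 between 1 and 3 h and -0.01 against -0.01 between 1 and 6 h. Leaving out control 1 h replicate 1 gave 18 calls between 1 and 3 h (36.2% of all), 23 between 1 and 6 h (44.8%) and still IRF1 between 3 and 6 h (1.49%). All 11 and all 14 were among them. Those added were IFNAR1, IRF3, OAS1, IFITM2, IFITM3, IFI6 and IFI35 between 1 and 3 h, and IRF2, IRF7, USP18, ISG15, IFIT5, IFITM2, IFITM3, IFI6 and PSMB9 between 1 and 6 h. The 1 to 3 h count was 6 or 7 without either other 1 h control and 5 or 6 without replicate 1 or 3 of the 3 h controls. No share of all tested is given for these fits, so a drop in everything tested cannot be told from one in the members. A fit to the 6 compared arrays alone left 1 call between 1 and 3 h (IFIT5) and 4 between 1 and 6 h (IFNGR1, IRF1, IFITM1 and TAP2). For that fit, too, no share of all tested is given. That fit has fewer degrees of freedom and takes its spread from those arrays, while the main fit shares 1 spread over all 6 groups. The median SD was 0.312 in the 1 h controls, 0.215 at 3 h and 0.134 at 6 h. What either contributed to these counts was not tested.

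The cells given aminaphtone were followed over the same hours. Between 1 and 3 h 6 members were called, 5 higher and 1 lower, against 10.5% of all (5.09% higher, 5.45% lower). Between 1 and 6 h 9 were called, 6 higher and 3 lower, against 16.7% (6.01% higher, 10.7% lower). Between 3 and 6 h limma called 0, against 0.266% of all, with 6 members at an unadjusted p under 0.05 (9.82% of all). The median member was 0.15 between 1 and 3 h and 0.14 between 1 and 6 h, against 0.02 for all tested in each case. Leaving out aminaphtone 6 h replicate 3 gave 5 calls between 1 and 6 h, and dropping any of aminaphtone 1 h replicates 1 and 2, control 3 h replicate 3, aminaphtone 3 h replicate 1, control 6 h replicate 1 and aminaphtone 6 h replicate 2 gave 6. Without control 1 h replicate 1, an array outside these comparisons, IFIH1 was added between 1 and 3 h. IFNAR1, USP18, OAS3 and GBP3 were added between 1 and 6 h. A fit to the 6 compared arrays alone called 20 between 1 and 6 h, where the median SD was 0.145 at 1 h and 0.117 at 6 h. No share of all tested is given for this fit or for those that left out 1 array in this arm's comparisons. Their counts therefore cannot be set against everything tested. IFNAR2, IFNGR2, TAP1 and TAP2 were called from 1 to 3 h in both arms, and IFNAR2, IFNGR1, IRF1, IRF3, TAP1 and TAP2 from 1 to 6 h, each in the same direction. These arms share no arrays, but their tests use the same estimate of spread, taken from all 18 arrays. The calls are therefore not independent. All 14 members called from 1 to 6 h in controls had the same sign with aminaphtone, 6 of them past the threshold there. How often other transcript clusters called in controls kept their sign or call with aminaphtone is not given. The agreement is therefore not shown to be particular to the members. Of the 41 calls over the 5 comparisons that had any, 21 held in all 18 fits that left out 1 array, as given by gene in what follows.

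**Figure D2:**
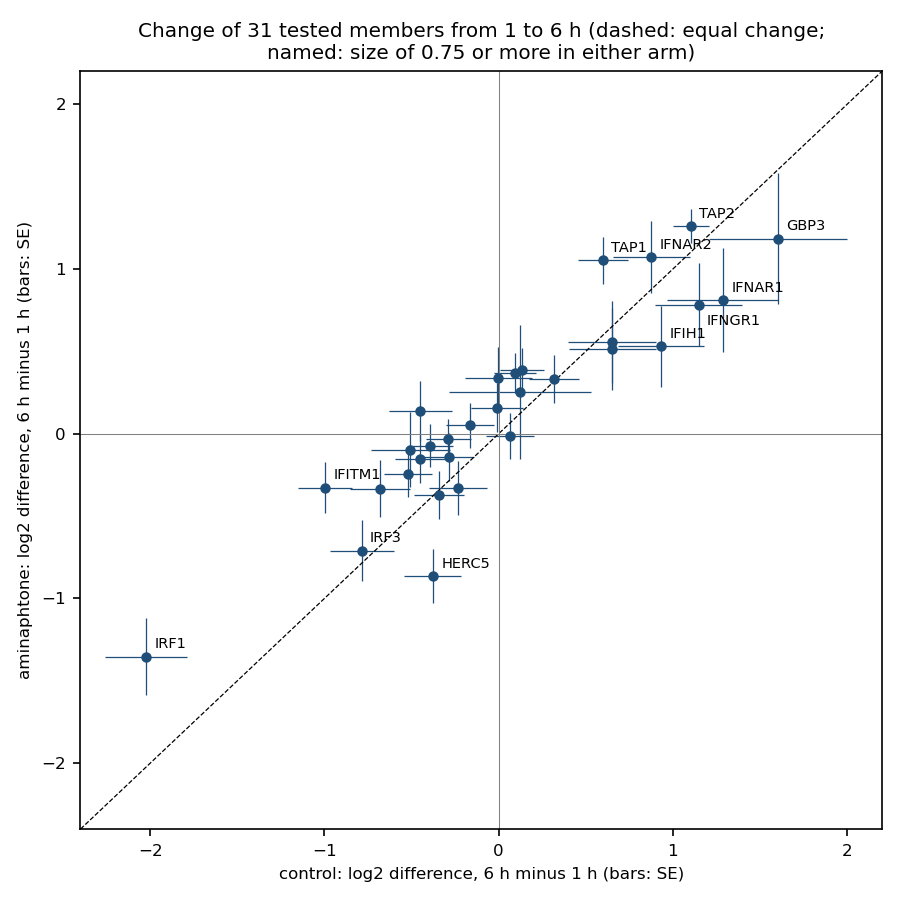
Change of the 31 tested members from 1 to 6 h, as log2 difference in controls (horizontal) and with aminaphtone (vertical), with bars for the SE and a dashed line for equal change. TAP2, TAP1, IFNAR2 and GBP3 lie at the upper right and IRF1 at the lower left, at -2.02 in controls and -1.35 with aminaphtone.

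Of the 4 receptor chains, 3 were called higher in controls from 1 to 3 h and 3 from 1 to 6 h, and with aminaphtone 2 and 3 were. IFNAR2, the signalling chain that binds type I interferon most tightly, read 9.21, 8.62 and 9.43 at 1 h, 9.81, 10.35 and 10.09 at 3 h and 9.98, 9.55 and 10.36 at 6 h in controls. With aminaphtone IFNAR2 read 9.02, 8.60 and 9.24 at 1 h, 10.06, 10.15 and 10.08 at 3 h and 9.97, 9.96 and 10.13 at 6 h. Every 3 h and 6 h array of either arm was above every 1 h array of that arm. In controls IFNAR2 rose 1.99-fold from 1 to 3 h (log2 difference 1.0, SE 0.219, adjusted p = 0.00661, n = 3 per group) and 1.84-fold from 1 to 6 h (log2 difference 0.88, SE 0.219, adjusted p = 0.00762). With aminaphtone it rose 2.21-fold (log2 difference 1.14, SE 0.219, adjusted p = 0.00262) and 2.1-fold (log2 difference 1.07, SE 0.219, adjusted p = 0.00262). The 6 h call in controls was lost without control 6 h replicate 3, and the other 3 held in all 18 fits.

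IFNAR1, its partner chain, read 8.65, 7.05 and 7.93 at 1 h, 8.93, 8.25 and 8.75 at 3 h and 9.21, 8.79 and 9.51 at 6 h in controls. With aminaphtone IFNAR1 read 8.75, 8.13 and 8.40 at 1 h, 8.66, 8.45 and 9.25 at 3 h and 9.05, 9.22 and 9.45 at 6 h. In each arm the 6 h arrays were all above the 1 h arrays, and the 3 h arrays overlapped both. The 1 h control values were the most scattered. The difference from 1 to 3 h in controls was 0.76 (adjusted p = 0.125), called with the replicate number as a block (adjusted p = 0.0448) and without control 1 h replicate 1 (1.15, adjusted p = 0.00576). The rise to 6 h passed in controls (2.44-fold, log2 difference 1.29, SE 0.318, adjusted p = 0.00717) in all 18 fits and did not with aminaphtone (log2 difference 0.81, SE 0.318, adjusted p = 0.0937). The aminaphtone difference passed in 2 of the 18 fits, among them that without control 1 h replicate 1 (adjusted p = 0.0278).

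IFNGR1, the ligand-binding chain for interferon-γ, read 8.65, 7.63 and 7.93 at 1 h, 8.89, 8.84 and 8.87 at 3 h and 9.24, 8.88 and 9.54 at 6 h in controls. With aminaphtone IFNGR1 read 8.53, 8.36 and 8.28 at 1 h, 8.59, 8.28 and 9.22 at 3 h and 8.85, 9.22 and 9.45 at 6 h. In controls every later array was above every 1 h array, whereas with aminaphtone this was so at 6 h and the 3 h arrays overlapped those at 1 h. The control rise was 1.74-fold by 3 h (log2 difference 0.80, SE 0.252, adjusted p = 0.0468) and 2.21-fold by 6 h (log2 difference 1.15, SE 0.252, adjusted p = 0.00348). With aminaphtone it was 1.72-fold by 6 h (log2 difference 0.78, SE 0.252, adjusted p = 0.041). The control call at 6 h held in all 18 fits, that at 3 h in 6 of 18, and the aminaphtone call in 9 of 18. The latter 2 calls were also lost when arrays were centred on their medians, and the control call at 3 h without the filter and with a trended, robust variance.

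IFNGR2, the accessory chain that brings in the kinase JAK2, had its highest mean at 3 h in both arms. Its difference from 3 to 6 h was not called in controls (-0.31, adjusted p = 0.362) or with aminaphtone (-0.27, adjusted p = 0.455). It read 11.20, 11.14 and 11.50 at 1 h, 11.54, 11.83 and 11.67 at 3 h and 11.39, 11.34 and 11.39 at 6 h in controls. With aminaphtone IFNGR2 read 10.80, 10.85 and 11.15 at 1 h, 11.61, 11.63 and 11.50 at 3 h and 11.40, 11.29 and 11.23 at 6 h. In both arms the 3 h arrays were above all the others of that arm, and with aminaphtone the 6 h arrays lay between those at 3 and 1 h. It rose from 1 to 3 h in controls (1.32-fold, log2 difference 0.40, SE 0.12, adjusted p = 0.0368) and with aminaphtone (1.56-fold, log2 difference 0.64, SE 0.12, adjusted p = 0.0023). With aminaphtone it was still higher at 6 h than at 1 h (log2 difference 0.37, SE 0.12, adjusted p = 0.0437). The aminaphtone call at 3 h held in all 18 fits, the control call in 13, and the 6 h call in 6, and the 6 h call was lost with array centring or the replicate number as a block.

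Of the 5 transcription factors tested, IRF1, IRF3 and IRF9 fell over time in controls. IRF1, a factor that binds ISRE-like sites and is itself induced by cytokines, read 11.19, 11.63 and 11.90 at 1 h, 10.19, 11.26 and 10.74 at 3 h and 9.63, 9.45 and 9.57 at 6 h in controls. With aminaphtone IRF1 read 10.82, 11.04 and 11.38 at 1 h, 10.66, 11.08 and 10.48 at 3 h and 9.80, 9.71 and 9.67 at 6 h. The 6 h arrays of each arm were below all the earlier ones, and the 1 h and 3 h arrays overlapped. In controls IRF1 fell 4.07-fold from 1 to 6 h (log2 difference -2.02, SE 0.233, adjusted p = 1.7e-05), in part by 3 h (log2 difference -0.85, SE 0.233, adjusted p = 0.0245) and in part after it (log2 difference -1.18, SE 0.233, adjusted p = 0.0277). With aminaphtone it fell 2.56-fold from 1 to 6 h (log2 difference -1.35, SE 0.233, adjusted p = 0.000721), and its change from 3 to 6 h missed the threshold (log2 difference -1.02, SE 0.233, adjusted p = 0.0865). Both 1 to 6 h calls held in all 18 fits. The control call from 1 to 3 h was lost without control 1 h replicate 2 or 3 or control 3 h replicate 1 or 3. The control call from 3 to 6 h was lost without control 3 h replicate 2 or 3 or any 6 h control.

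IRF3, which is activated by RNA and DNA sensors and induces interferon-β, read 9.94, 10.64 and 10.37 at 1 h, 9.68, 10.33 and 10.02 at 3 h and 9.61, 9.57 and 9.40 at 6 h in controls. With aminaphtone IRF3 read 9.94, 10.03 and 10.02 at 1 h, 9.94, 10.17 and 9.59 at 3 h and 9.42, 9.26 and 9.19 at 6 h. In both arms the 6 h arrays were below all earlier ones. From 1 to 6 h IRF3 fell 1.72-fold in controls (log2 difference -0.79, SE 0.183, adjusted p = 0.00495) and 1.64-fold with aminaphtone (log2 difference -0.71, SE 0.183, adjusted p = 0.0124), the latter call being lost without aminaphtone 6 h replicate 3.

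IRF9, the DNA-binding part of the factor that recognises the ISRE, read 8.21, 8.68 and 8.45 at 1 h, 7.63, 7.97 and 7.87 at 3 h and 8.09, 7.71 and 8.18 at 6 h in controls. With aminaphtone IRF9 read 8.09, 8.03 and 8.30 at 1 h, 8.02, 8.02 and 7.87 at 3 h and 8.09, 8.0 and 7.87 at 6 h. In controls every 3 h and 6 h array was below every 1 h array. It fell from 1 to 3 h (1.54-fold, log2 difference -0.62, SE 0.146, adjusted p = 0.00976) and was still lower at 6 h than at 1 h (1.37-fold, log2 difference -0.45, SE 0.146, adjusted p = 0.0299). The first call was lost without control 3 h replicate 1, and the second without control 1 h replicate 2 or 3 or control 6 h replicate 2. With aminaphtone neither interval passed (adjusted p = 0.581 and 0.522). IRF2, an antagonist of IRF1, and IRF7, which amplifies interferon production, were not called in any comparison of times, with arrays at 8.45 to 9.97 and 7.95 to 8.60. From 1 to 6 h in controls IRF2 was at 0.65 (adjusted p = 0.065) and was called higher without control 1 h replicate 1 (0.82, adjusted p = 0.0175). The replicate block called it too (adjusted p = 0.0347), but replicate numbers were not taken to pair arrays there (correlations -0.444, 0.327 and -0.216). IRF7 was at -0.17 (adjusted p = 0.42) and was called lower without control 1 h replicate 1 (-0.33, adjusted p = 0.0399).

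Among the RNA sensing and feedback genes, IFIH1, the sensor of long double-stranded RNA known as MDA5, rose in controls. It read 7.19, 6.13 and 6.50 at 1 h, 7.72, 7.35 and 7.54 at 3 h and 7.44, 7.31 and 7.88 at 6 h in controls. With aminaphtone IFIH1 read 7.11, 6.70 and 6.93 at 1 h, 7.30, 7.26 and 8.04 at 3 h and 7.23, 7.45 and 7.65 at 6 h. In each arm all later arrays were above all 1 h arrays. The control rise was 1.9-fold by 3 h (log2 difference 0.93, SE 0.247, adjusted p = 0.0208) and 1.91-fold by 6 h (log2 difference 0.93, SE 0.247, adjusted p = 0.0106), while with aminaphtone the differences missed the threshold (log2 difference 0.62, SE 0.247, adjusted p = 0.133 at 3 h, log2 difference 0.53, SE 0.247, adjusted p = 0.162 at 6 h). The 3 h call was lost without control 1 h replicate 2 or 3 or control 3 h replicate 1 or 3, and the 6 h call without control 1 h replicate 2 or control 6 h replicate 3. Without control 1 h replicate 1 the aminaphtone difference at 3 h was called (adjusted p = 0.0417).

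HERC5, the ligase that attaches ISG15 to target proteins, fell in the cells given aminaphtone. It read 7.69, 7.23 and 7.20 at 1 h, 7.17, 7.61 and 7.25 at 3 h and 6.97, 6.87 and 7.14 at 6 h in controls. With aminaphtone HERC5 read 8.0, 7.71 and 7.84 at 1 h, 7.05, 7.34 and 7.56 at 3 h and 6.83, 6.95 and 7.18 at 6 h. The aminaphtone arrays at 3 h and 6 h were all below those at 1 h, and the 6 h controls were below the earlier controls. It fell 1.82-fold from 1 to 6 h with aminaphtone (log2 difference -0.86, SE 0.164, adjusted p = 0.00152), a call that held in all 18 fits. The fall from 1 to 3 h (log2 difference -0.53, SE 0.164, adjusted p = 0.0469) held in 5 of 18 fits and was lost without the filter, with array centring and with the replicate number as a block. ISG15, a ubiquitin-like modifier, and USP18, the protease that removes it and damps receptor signalling, were not called in any comparison of times, with arrays at 7.51 to 8.20 and 7.08 to 8.0. Without control 1 h replicate 1 both were called lower from 1 to 6 h in controls (ISG15 -0.46, adjusted p = 0.0092, and USP18 -0.49, adjusted p = 0.00814). USP18 was then called lower with aminaphtone as well (-0.37, adjusted p = 0.0368), and ISG15 was not (-0.14, adjusted p = 0.423).

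The IFIT family, proteins that bind foreign RNA ends, went different ways. IFIT5 read 7.71, 7.21 and 6.94 at 1 h, 8.36, 8.45 and 8.41 at 3 h and 7.87, 7.46 and 8.49 at 6 h in controls. With aminaphtone IFIT5 read 7.76, 7.49 and 7.67 at 1 h, 8.01, 7.87 and 8.74 at 3 h and 7.91, 8.20 and 8.36 at 6 h. All 3 h arrays were above all 1 h arrays in both arms. In controls IFIT5 rose 2.17-fold from 1 to 3 h (log2 difference 1.12, SE 0.25, adjusted p = 0.00723), in all 18 fits, and at 6 h the difference from 1 h missed the threshold (log2 difference 0.65, SE 0.25, adjusted p = 0.0629) and passed without control 1 h replicate 1 (0.86, adjusted p = 0.0103). With aminaphtone the differences missed it as well (0.57, adjusted p = 0.186, at 3 h and 0.52, adjusted p = 0.18, at 6 h).

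IFIT1 lay below the filter and is described because its values, once seen, differed by time. It read 7.48, 6.52 and 6.68 at 1 h, 5.42, 5.69 and 5.63 at 3 h and 5.36, 5.48 and 5.56 at 6 h in controls. With aminaphtone IFIT1 read 6.90, 6.97 and 6.72 at 1 h, 5.41, 5.93 and 5.74 at 3 h and 5.42, 5.57 and 5.55 at 6 h. All 1 h arrays were above all later arrays of both arms. In the fit without a filter, over 21062 transcript clusters, IFIT1 fell 2.49-fold from 1 to 3 h in controls (log2 difference -1.32, SE 0.189, adjusted p = 0.000293) and 2.25-fold with aminaphtone (log2 difference -1.17, adjusted p = 0.000827). That fit called 9.15% of all in controls and 8% with aminaphtone over this interval. At 6 h it was 2.7-fold below its 1 h level in controls (adjusted p = 8.08e-05, 19.9% of all called) and 2.55-fold with aminaphtone (adjusted p = 0.000164, 13.1%). IFIT2 was the other member below the filter that it called in a comparison of times, from 1 to 6 h with aminaphtone (log2 difference -0.80, adjusted p = 0.0135). IFIT2 and IFIT3 ranged from 5.03 to 6.35 and from 5.60 to 6.19 over all arrays.

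The OAS genes make enzymes that activate RNase L, apart from OASL, which lacks that activity. OAS1 read 7.10, 7.29 and 7.53 at 1 h, 6.94, 7.14 and 6.99 at 3 h and 6.73, 6.68 and 6.95 at 6 h in controls. With aminaphtone OAS1 read 6.80, 7.01 and 7.11 at 1 h, 7.02, 7.16 and 6.86 at 3 h and 6.96, 6.63 and 6.61 at 6 h. The 6 h controls were all below the 1 h controls, and the aminaphtone groups overlapped. OAS1 fell from 1 to 6 h in controls (1.43-fold, log2 difference -0.52, SE 0.139, adjusted p = 0.0111), a call lost without control 1 h replicate 3.

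OASL read 6.65, 6.96 and 6.73 at 1 h, 6.78, 7.01 and 6.72 at 3 h and 6.47, 6.29 and 6.41 at 6 h in controls. With aminaphtone OASL read 6.52, 6.72 and 6.63 at 1 h, 6.83, 7.07 and 6.57 at 3 h and 6.49, 6.63 and 6.53 at 6 h. The 6 h controls were below all other controls. The fall from 1 to 6 h passed narrowly (1.31-fold, log2 difference -0.39, SE 0.129, adjusted p = 0.033) and was lost without control 1 h replicate 2 or 3 or any 6 h control.

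OAS3 read 7.94, 8.49 and 8.42 at 1 h, 8.35, 8.72 and 8.76 at 3 h and 8.51, 8.64 and 8.64 at 6 h in controls. With aminaphtone OAS3 read 8.05, 7.98 and 8.21 at 1 h, 8.75, 8.71 and 8.45 at 3 h and 8.43, 8.41 and 8.40 at 6 h. The aminaphtone arrays at 3 h were the highest of that arm and those at 1 h the lowest, with no overlap between times. OAS3 rose 1.47-fold from 1 to 3 h with aminaphtone (log2 difference 0.56, SE 0.144, adjusted p = 0.0187), a call lost without replicate 1 or 2 of either aminaphtone group compared. In controls the difference was 0.33 (adjusted p = 0.146), and 0.16 without control 1 h replicate 1 (adjusted p = 0.383). From 1 to 6 h with aminaphtone OAS3 was at 0.33 (adjusted p = 0.133), and was called without control 1 h replicate 1 (adjusted p = 0.0486).

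IFITM1, IFITM2 and IFITM3 make membrane proteins that block virus entry. Their transcripts are alike in sequence, so their probes may share signal. IFITM1 read 7.84, 8.0 and 8.08 at 1 h, 7.03, 7.73 and 7.40 at 3 h and 6.86, 6.81 and 7.25 at 6 h in controls. With aminaphtone IFITM1 read 7.53, 7.52 and 7.73 at 1 h, 7.58, 7.81 and 7.60 at 3 h and 7.35, 7.16 and 7.28 at 6 h. The later controls were all below those at 1 h, and with aminaphtone this was so at 6 h. In controls IFITM1 fell 1.5-fold from 1 to 3 h (log2 difference -0.58, SE 0.157, adjusted p = 0.0218) and 1.99-fold from 1 to 6 h (log2 difference -1.0, SE 0.157, adjusted p = 0.000317). The 6 h call held in all 18 fits, and the 3 h call was lost without control 1 h replicate 3 or control 3 h replicate 1 or 3. With aminaphtone the difference at 6 h was -0.33 (adjusted p = 0.175).

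ISG20, an RNA exonuclease, read 6.73, 7.18 and 7.13 at 1 h, 7.18, 7.09 and 7.15 at 3 h and 7.07, 7.09 and 7.28 at 6 h in controls. With aminaphtone ISG20 read 6.82, 6.74 and 6.82 at 1 h, 7.12, 7.28 and 6.84 at 3 h and 7.15, 7.20 and 7.19 at 6 h. The controls overlapped between times, while the aminaphtone arrays at 3 h and 6 h were above those at 1 h. The rise from 1 to 6 h with aminaphtone (1.31-fold, log2 difference 0.39, SE 0.128, adjusted p = 0.045) held in 6 of 18 fits and was lost with array centring and with the replicate number as a block. IFI35, which partners the protein NMI, read 9.24, 9.84 and 9.69 at 1 h, 8.83, 9.45 and 9.26 at 3 h and 8.81, 8.98 and 8.93 at 6 h in controls. With aminaphtone IFI35 read 9.25, 9.44 and 9.37 at 1 h, 9.52, 9.56 and 9.03 at 3 h and 9.09, 9.0 and 8.97 at 6 h. In both arms the 6 h arrays were below all 1 h arrays, and the fall passed in controls in all 18 fits (1.6-fold, log2 difference -0.68, SE 0.174, adjusted p = 0.00875). With aminaphtone it was -0.33 (adjusted p = 0.218). IFI6 and IFI27, small interferon-induced proteins, and CMPK2, a mitochondrial nucleotide kinase, were not called in any comparison of times, with arrays at 8.68 to 9.95, 6.46 to 7.26 and 6.79 to 7.34. Without control 1 h replicate 1 IFI6 was called lower in controls from 1 to 3 h (-0.71, adjusted p = 0.0203) and from 1 to 6 h (-0.72, adjusted p = 0.0144).

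Guanylate-binding proteins are GTPases that attack vacuoles of intracellular pathogens. GBP3 read 6.87, 5.28 and 6.21 at 1 h, 7.74, 7.78 and 7.56 at 3 h and 7.58, 7.11 and 8.48 at 6 h in controls. With aminaphtone GBP3 read 6.20, 5.77 and 6.48 at 1 h, 6.51, 6.99 and 7.52 at 3 h and 6.62, 7.60 and 7.78 at 6 h. All later arrays were above all 1 h arrays of the same arm. In controls GBP3 rose 2.98-fold by 3 h (log2 difference 1.58, SE 0.397, adjusted p = 0.0151) and 3.04-fold by 6 h (log2 difference 1.60, SE 0.397, adjusted p = 0.00728). The first call was lost without control 1 h replicate 2 or control 3 h replicate 1, and the second without control 6 h replicate 3. With aminaphtone the difference at 6 h was 1.18 (SE 0.397, adjusted p = 0.0504), and it was called without control 1 h replicate 1. GBP2 ranged from 5.93 to 7.86 over all arrays and was not called in any comparison of times. GBP genes are close copies, so part of the GBP3 signal may come from other members.

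TAP1 and TAP2 make the pump that carries peptides into the endoplasmic reticulum, and both rose by 3 h in both arms. TAP1 read 9.32, 9.97 and 9.72 at 1 h, 10.15, 10.38 and 10.45 at 3 h and 10.34, 10.28 and 10.18 at 6 h in controls. With aminaphtone TAP1 read 8.97, 9.08 and 9.20 at 1 h, 10.32, 10.09 and 10.25 at 3 h and 10.27, 10.10 and 10.04 at 6 h. In each arm every later array was above every 1 h array. It rose 1.57-fold from 1 to 3 h in controls (log2 difference 0.65, SE 0.142, adjusted p = 0.00615) and 2.2-fold with aminaphtone (log2 difference 1.14, SE 0.142, adjusted p = 6.14e-05). From 1 to 6 h it rose 1.51-fold (log2 difference 0.60, SE 0.142, adjusted p = 0.00567) and 2.07-fold (log2 difference 1.05, SE 0.142, adjusted p = 8.84e-05).

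TAP2 read 8.27, 8.34 and 8.41 at 1 h, 9.22, 8.99 and 9.29 at 3 h and 9.50, 9.34 and 9.50 at 6 h in controls. With aminaphtone TAP2 read 8.26, 8.28 and 8.31 at 1 h, 9.32, 9.12 and 9.21 at 3 h and 9.62, 9.55 and 9.47 at 6 h. Replicates lay close together, every 3 h array was above every 1 h array, and every 6 h array was above every 3 h array of its arm. It rose 1.78-fold from 1 to 3 h and 2.15-fold from 1 to 6 h in controls (log2 difference 1.10, SE 0.101, adjusted p = 1.83e-06). With aminaphtone the rises were 1.91-fold and 2.4-fold (log2 difference 1.26, SE 0.101, adjusted p = 5.21e-07). These were the smallest adjusted p-values among the members in each of the 4 comparisons with 1 h, and all 8 calls of TAP1 and TAP2 held in all 18 fits that left out 1 array. In limma on the compared arrays alone, some control calls were lost. These were TAP1 from 1 to 3 h (adjusted p = 0.191) and 1 to 6 h (0.092), and TAP2 from 1 to 3 h (0.0515).

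The immunoproteasome subunits, which cut peptides for the same pathway, were not called in any comparison of times. PSMB9 starts 488 bases from TAP1 on the opposite strand of chromosome 6 in GRCh38.p14. PSMB9 read 7.92, 8.39 and 8.47 at 1 h, 7.81, 8.26 and 8.10 at 3 h and 8.03, 7.95 and 8.10 at 6 h in controls. With aminaphtone PSMB9 read 7.88, 8.12 and 8.20 at 1 h, 8.02, 8.24 and 7.64 at 3 h and 7.75, 7.74 and 7.72 at 6 h. Its times overlapped in controls, where the difference from 1 to 3 h was -0.20 (95% interval -0.55 to 0.15, adjusted p = 0.485), and PSMB8 gave -0.02 (-0.42 to 0.39, adjusted p = 0.975). With aminaphtone PSMB8 was at 0.43 over this interval (0.03 to 0.83, adjusted p = 0.186) and PSMB9 at -0.10 (adjusted p = 0.813). The PSMB9 arrays at 6 h with aminaphtone were all below those at 1 h (-0.33, adjusted p = 0.197). In controls PSMB9 was called lower from 1 to 6 h without control 1 h replicate 1 (-0.40, adjusted p = 0.0483). PSMB8, PSMB9 and TAP1 are each named on 3 rows with identical values, so their rows are not separate measurements. TAP2 is named on 3 rows that differ by up to 0.22 and GBP2 on 2 that differ by up to 0.35. The row with the highest mean was used for each. With the mean of a gene's rows instead, all 41 calls of single members stayed.

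**Figure D3:**
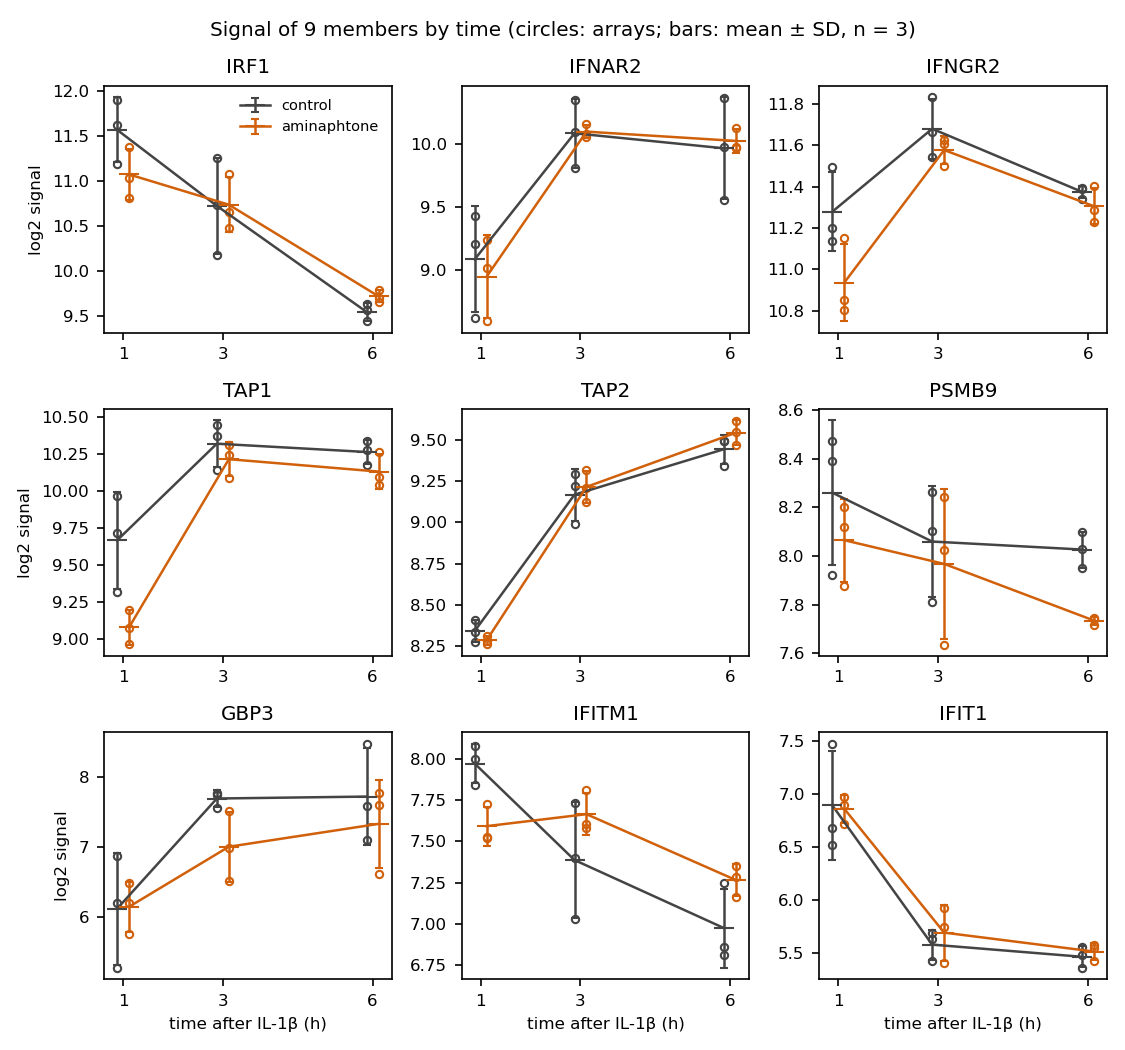
Log2 signal of 9 members at 1, 3 and 6 h after IL-1β in controls (grey) and with aminaphtone (orange), with a circle for each array and bars for mean ± SD (n = 3). TAP1 and TAP2 rise between 1 and 3 h in both arms while PSMB9 stays near 8, IRF1 and IFIT1 fall, and the 1 h controls are widely spread for GBP3. The 9 were picked after their values were seen.

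Other genes of the pathway were counted on a list of 72, of which 70 were found and 55 passed the filter. In controls 11 of the 55 (20%) were called from 1 to 3 h, 10 higher and 1 lower, against 12.8% of all tested, and 19 (34.5%) from 1 to 6 h, 16 higher and 3 lower, against 26.5%. With aminaphtone 11 (20%) were called from 1 to 3 h, 9 higher and 2 lower, against 10.5%, and 14 (25.5%) from 1 to 6 h, 10 higher and 4 lower, against 16.7%, and none from 3 to 6 h in either arm. The list's medians were 0.11 and 0.08 in controls and 0.19 and 0.15 with aminaphtone. TRIM25, the ligase that activates the RNA sensor RIG-I, was higher at 6 h than at 1 h in controls (log2 difference 1.14, SE 0.134, adjusted p = 2.22e-05) and with aminaphtone (log2 difference 1.51, SE 0.134, adjusted p = 1.56e-06). PML, the scaffold of nuclear bodies, was higher as well (log2 difference 0.94, SE 0.177, adjusted p = 0.00118 and log2 difference 1.59, SE 0.177, adjusted p = 1.48e-05). So was LAMP3, a lysosomal membrane protein (log2 difference 1.30, SE 0.147, adjusted p = 1.51e-05 and log2 difference 0.98, SE 0.147, adjusted p = 0.000255). PARP14, an ADP-ribosyltransferase, rose by 2.06 over this interval in controls and TRIM21, a cytosolic antibody receptor, by 1.13 from 1 to 3 h with aminaphtone. TNFSF10, the death ligand TRAIL, was lower (log2 difference -2.0, SE 0.426, adjusted p = 0.00285 and log2 difference -2.67, SE 0.426, adjusted p = 0.000395).

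Whether aminaphtone changed the module was asked at each time against the controls of that time. At 1 h the members tended to be lower, with no call. limma called 0 of 31, against 0.0886% of all tested, and 9 had an unadjusted p under 0.05, 8 lower and 1 higher, against 30.8% of all. In all, 24 of the 31 were lower, as were 59.7% of all tested, and the median difference was -0.20 against -0.10. Groups did not overlap in 4 members that were lower (7.55% of all) and 1 that was higher (5.77% of all). These were TAP1, IFITM1, IFITM2 and IFITM3, and HERC5.

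TAP1 was lowest among them relative to its error. With aminaphtone all 3 arrays at 1 h were below all 3 controls (log2 difference -0.59, SE 0.142, adjusted p = 0.122, 95% interval -0.89 to -0.29). IFITM3 read 11.85, 12.22 and 12.03 in the 1 h controls and 11.54, 11.59 and 11.78 with aminaphtone, with no overlap (log2 difference -0.40, SE 0.127, adjusted p = 0.139). IFITM2 read 8.93, 9.57 and 9.27 and 8.58, 8.66 and 8.87, again without overlap (log2 difference -0.56, SE 0.182, adjusted p = 0.139). HERC5 went the other way, all its aminaphtone arrays being above the controls (log2 difference 0.48, SE 0.164, adjusted p = 0.139). IRF1 overlapped between the groups (log2 difference -0.50, SE 0.233, adjusted p = 0.161).

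Other fits gave other counts at 1 h. Arrays of equal replicate number deviated together there (correlations 0.746, 0.411 and 0.322), and with that number as a block 6 members were called, against 15.6% of all tested. The 5 lower ones, against 4.75%, were TAP1 (adjusted p = 0.0315), IFITM3 (0.0409), IFNGR2 (0.0432), IRF1 (0.0427) and IFITM2 (0.0455), and the higher one, against 10.9%, was HERC5 (0.0397). Without control 1 h replicate 1, 20 members were called, 16 lower and 4 higher, against 53.9% of all tested, and TAP1 was at -0.76 (adjusted p = 0.0011). That array was the control nearest to the aminaphtone arrays for TAP1, IFITM2 and IFITM3.

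**Figure D4:**
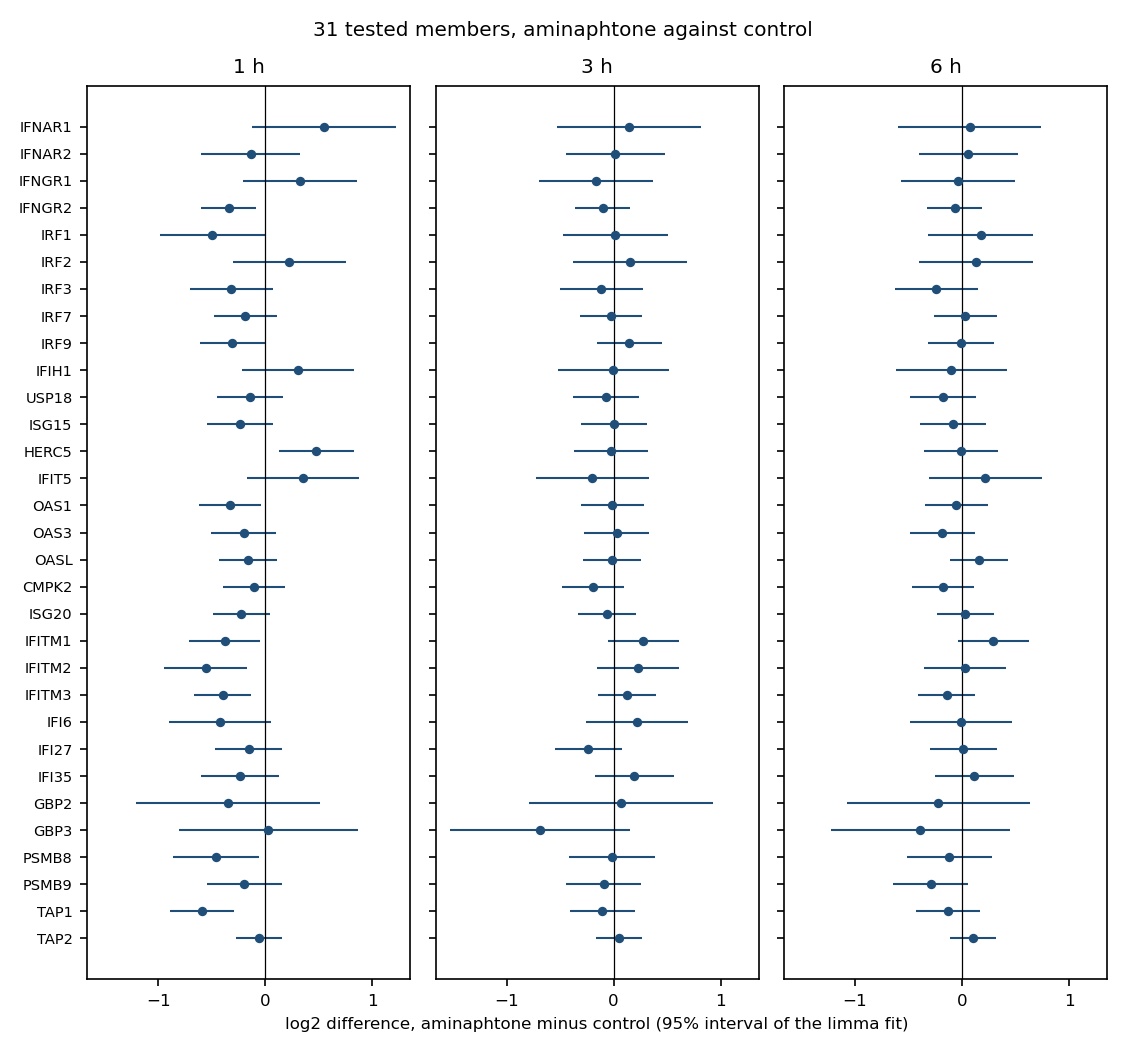
Log2 difference between aminaphtone and control for the 31 tested members at 1, 3 and 6 h, with 95% intervals of the limma fit and a line at 0. At 1 h most points lie left of 0, with TAP1 at -0.59, and at 3 and 6 h they lie on both sides with every interval crossing 0.

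At 3 h the members lay on both sides of the controls. limma called 0 of 31, against 0.038% of all tested, and 0 had an unadjusted p under 0.05, against 6.5% of all. The median difference was -0.01 against 0.00. IFITM1 had the smallest p (log2 difference 0.28, SE 0.157, adjusted p = 0.832), with overlapping groups. GBP3 was next (log2 difference -0.69, SE 0.397, adjusted p = 0.835), and its 3 aminaphtone arrays were below the 3 controls, by the least margin for aminaphtone replicate 3. IFI27 followed, at 7.26, 6.71 and 6.90 in controls and 6.80, 6.80 and 6.56 with aminaphtone, which overlap (log2 difference -0.24, SE 0.148, adjusted p = 0.862). GBP3 and CMPK2 were the members with no overlap, both lower (4.99% of all), and none was higher without overlap (7.58% of all).

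At 6 h the members again lay on both sides of the controls. limma called 0 of 31, against 0.108% of all tested, and 0 had an unadjusted p under 0.05, against 3.93% of all, with a median of -0.01 against -0.01. IFITM1 was at 0.29 (95% interval -0.04 to 0.62, adjusted p = 1) with overlapping groups. PSMB9 was at -0.29 (-0.64 to 0.06, adjusted p = 1), its aminaphtone arrays all below the controls. Groups did not overlap in 2 members that were higher (IRF1 and OASL, 8.86% of all) and 3 that were lower (PSMB9, OAS3 and IFITM3, 7.25% of all). CMPK2 read 7.16, 7.23 and 7.0 in controls and 7.06, 6.99 and 6.79 with aminaphtone, with overlap, a difference of -0.18 (-0.47 to 0.11). TAP1, the lowest at 1 h, was at -0.13 here, with an interval of -0.43 to 0.17.

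Averaged over the 3 times, limma called 0 of 31 members, against 0.829% of all tested, and 3 had an unadjusted p under 0.05, against 18.9% of all. These were TAP1 (log2 difference -0.27, SE 0.082, adjusted p = 0.127), IFNGR2 (log2 difference -0.17, SE 0.0696, adjusted p = 0.217) and IRF3 (log2 difference -0.22, SE 0.106, adjusted p = 0.264), all lower with aminaphtone. Without control 1 h replicate 1 the average called 3 members, TAP1, IRF3 and PSMB9 (21.8% of all). None of the 3 was called in another of the 18 fits that left out 1 array. Whether the difference between arms depended on time was tested by the interaction, which called 0 of 31, against 0.038% of all, with 4 at an unadjusted p under 0.05 (9.23% of all). The smallest p was that of IFITM1, lower than controls at 1 h (-0.38) and higher at 3 and 6 h (0.28 and 0.29), with an adjusted p of 0.521 in limma. Without control 1 h replicate 1 the interaction called TAP1 (adjusted p = 0.0233), IFITM2 (0.0299) and IFITM1 (0.0454), against 19% of all tested. Each was called in only that 1 of the 18 fits that left out an array.

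On the pathway list, limma called 0 of 55 between arms at 3 h (0.038% of all tested), at 6 h (0.108%), for the average (0.829%) and for the interaction (0.038%). At 1 h it called 1 (0.0886% of all), TICAM1, the adaptor of the sensor TLR3, at -0.84.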

How the data were processed

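RNA from 18 cultures was hybridised to Affymetrix Human Gene 1.0 ST arrays, and the labels put the arrays in 6 groups of 3. The authors deposited a log2 signal for each transcript cluster, made with RMA in Affymetrix Expression Console, per the submitters' processing notes. RMA corrects background, equalises the arrays' distributions and summarises probes, so a change shared by most genes would be removed. Which arrays were processed together and the build of the annotation are not given in the sources used here. The table holds 28869 rows, of which 19310 name a single gene, 1752 several and 7807 none, and 19279 of the first matched RefSeq by gene ID.

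Models with a mean for each group were fitted in limma 3.58.1 (R 4.3.3) to all 18 arrays and 15796 annotated transcript clusters above the 25th percentile of mean signal (6.193), with 12 residual and 4.814 prior degrees of freedom. Tests are two-sided, with p-values adjusted by Benjamini and Hochberg over all of them at a threshold of 0.05. "Called", "rose" and "fell" mean past that threshold. For arrays, it is their number that limits the precision. The replicates are labelled as independent, and p-values rest on the spread between them.

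Values in every array were given for members called in any comparison, for the 3 smallest p-values per comparison of arms and for IFNB1. Others are given by range. The members and lists were chosen with earlier results of these data known. Replicate numbers were taken to pair arrays where all 3 correlations of deviations passed 0.1, which held between arms at 1 h (0.746, 0.411 and 0.322) and between 1 and 3 h in controls (0.313, 0.359 and 0.258). The labels do not state such pairs. In the other comparisons the block was run as an alternative setting only, since replicate numbers were not taken to pair arrays there. The calculation was tested on simulated data. Alternatives changed the filter, the variance model, the centring, the row per gene, the arrays in the fit and the replicate block, and left out each array in turn.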

Additional observations from a re-analysis of the deposited data

How the results depend on the processing

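Counts of members called changed by more than 1.5 times under these settings. The replicate number as a block gave 6 calls between arms at 1 h in place of 0. With only the arrays compared, the counts became 1 in place of 11 (control, 1 to 3 h), 4 in place of 14 (control, 1 to 6 h), 1 in place of 0 (aminaphtone, 3 to 6 h) and 20 in place of 9 (aminaphtone, 1 to 6 h). This setting has fewer samples in each fit, takes its spread from them alone and gives no separate value for the average and the interaction. A stricter filter, at the 50th percentile, gave 9 in place of 14 (control, 1 to 6 h), with fewer members tested. Leaving out 1 array at a time gave 0 to 20 calls between arms at 1 h, 0 to 0 at 3 h and at 6 h, 0 to 3 for the average and 0 to 3 for the interaction. For times it gave 5 to 18 (control, 1 to 3 h), 0 to 1 (control, 3 to 6 h), 10 to 23 (control, 1 to 6 h), 4 to 7 (aminaphtone, 1 to 3 h), 0 to 1 (aminaphtone, 3 to 6 h) and 5 to 13 (aminaphtone, 1 to 6 h). No share of all tested is given for the compared arrays alone, the stricter filter or most fits without 1 array. Counts under those settings therefore cannot be set against a change in everything tested. None of the 41 calls of single members changed direction. Some members that were not called did. For example, without control 1 h replicate 1, HERC5, OASL, CMPK2, ISG20 and GBP2 changed sign in controls from 1 to 3 h, CMPK2 and ISG20 from 1 to 6 h, GBP2 between arms at 1 h and IFI35 in the average. Array centring turned the median difference between arms at 3 h from -0.01 to 0.03. Of the 41 calls of single members, array centring ended 5, the block 3, no filter 2, the trended and robust variance 1, and only the arrays compared 20. The block gave 13 calls in place of 11 in controls from 1 to 3 h (14.5% of all tested), adding IFITM3 (adjusted p = 0.0303) and IFNAR1 (0.0448). The cause of these changes was not tested.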

Other observations

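A row that names GBP1 and GBP3 together with a pseudogene, and so stands for none of them, had group means of 8.50, 9.50 and 9.30 at 1, 3 and 6 h in controls and 8.33, 8.97 and 8.70 with aminaphtone. A row that names USP18 with a pseudogene had 7.91, 7.55 and 7.49 in controls and 7.63, 7.72 and 7.45 with aminaphtone. Neither was counted among the members.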
